A study of Mus musculus with 48 samples.

Results

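The 10 genes described here form the core of hepatic iron handling in the mouse: the hepcidin genes Hamp and Hamp2, the upstream genes Bmp6, Hfe and Tfr2, the transferrin receptor Tfrc, transferrin (Trf), ferroportin (Slc40a1) and the ferritin chains Fth1 and Ftl1. They were taken by gene name from the probe annotation of the arrays, which gave 10 of the 22029 gene names tested and 16 probes of the 33323 tested, out of 56605 on the array. Hamp, Hamp2, Bmp6 and Fth1 had 1 probe each and the other genes had 2, so that values of 2 probes of one gene come from the same RNA sample and are not replicates. The 2 probes of Hfe, of Tfr2 and of Slc40a1 were annotated to different transcript records of the gene.

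Liver RNA of 48 male C57BL/6J mice, 20 weeks old, had been hybridised singly to 1-colour Agilent microarrays, 8 mice to each of 6 groups. Wild-type (WT) mice, Pparα hep-/- mice and Pparα-/- mice received either the control diet (CTRL) or one with 60% of fat (HFD), for 12 weeks according to the labels (the study's methods give a shorter time), and all were housed at thermoneutrality. Pparα encodes a nuclear receptor that switches on fatty acid oxidation in the fasted liver. The Pparα hep-/- mice (PPARa LKO in the labels) carried a floxed Pparα and an albumin-Cre transgene, which acts in hepatocytes, whereas the Pparα-/- mice (PPARa KO) lacked the gene in every tissue. The WT mice came from a commercial breeder and the mutants from the study's own facility, and WT mice were not described as carrying the floxed allele or the Cre, so genotype and origin cannot be told apart in any comparison with WT. The mutants were separately bred lines, so line and extent of the deletion cannot be told apart between them either.

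Hepcidin is a small peptide hormone that hepatocytes release into blood. It binds ferroportin, the only known cellular exporter of iron, and has it degraded, which keeps iron inside macrophages, enterocytes and hepatocytes. Transcription of Hamp is known to rise with liver iron, through Bmp6 from sinusoidal endothelium and SMAD proteins, and with inflammation, through interleukin-6 and STAT3. Tfr2 and Hfe are membrane proteins that take part in sensing transferrin-bound iron. Tfrc messenger RNA is stabilised, and translation of ferritin repressed, when cells lack iron.

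Mice have 2 hepcidin genes side by side on chromosome 7, and their probes are shown because the pair behaved differently. The Hamp probe lay at mm9 chr7:31727490-31727549 and the Hamp2 probe at mm9 chr7:31707520-31707579, both on the minus strand. The coding part of each probe, 53 of its 60 bases up to and including the stop codon, is given with the bases that differ between the pair in capitals.
Hamp: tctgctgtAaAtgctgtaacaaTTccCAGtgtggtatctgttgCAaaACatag
Hamp2: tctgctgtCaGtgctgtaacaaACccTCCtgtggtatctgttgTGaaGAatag
Of the 53 bases compared, 42 were equal (79.2%) and 11 differed. Whether RNA of one gene hybridised in part to the probe of the other was not tested.

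The 250 bases before each start site, from RefSeq on GRCm38.p6 and on the minus strand, are shown because the 2 known routes to hepcidin meet there. The letters of the proximal BMP-responsive element, GGCGCC, and of the STAT3 element, TTCTTGGAA, are in capitals.
Hamp, GRCm38.p6 chr7:30944030-30944279: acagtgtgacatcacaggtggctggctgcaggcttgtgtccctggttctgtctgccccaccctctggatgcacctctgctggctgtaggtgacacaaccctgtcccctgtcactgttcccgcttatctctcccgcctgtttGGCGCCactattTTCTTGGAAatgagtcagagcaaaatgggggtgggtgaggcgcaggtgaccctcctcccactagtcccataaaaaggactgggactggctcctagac
Hamp2, GRCm38.p6 chr7:30924182-30924431: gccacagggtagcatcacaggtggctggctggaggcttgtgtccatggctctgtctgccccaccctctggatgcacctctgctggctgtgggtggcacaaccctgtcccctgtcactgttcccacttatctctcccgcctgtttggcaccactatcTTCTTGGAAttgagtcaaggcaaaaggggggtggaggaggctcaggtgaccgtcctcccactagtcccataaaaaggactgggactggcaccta
In the Hamp window, GGCGCC began 109 bases and TTCTTGGAA 97 bases before the start site. In the Hamp2 window, TTCTTGGAA began 94 bases before the start site and GGCGCC was not found. Searched on both strands of 32851 promoter windows of the same length, GGCGCC was present in 9.59% and TTCTTGGAA in 0.365%. The letters AGGTCA, the core recognised by many nuclear receptors, were present in 14% of windows and in neither hepcidin window. The motifs do not overlap each other, and a match of letters is a description of the window only.

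Signals are given as quantile-normalised log2 intensities, in which 1 unit is a doubling. Differences come from a limma model with array weights and the wash batch as a covariate, and can therefore depart from the difference of group means. A probe was called when its Benjamini-Hochberg adjusted p over all 33323 probes was at most 0.05. Levels of different probes cannot be compared on an array. Between 28234 and 38217 spots per array were well above background, and no spot was saturated. The hepatocyte markers, among them albumin, transthyretin and Hnf4a, were above background on all arrays, and the medians of their summed signal, to which the most abundant ones contribute most, were 1780000 to 1870000 by group. Quantile normalisation brings the brightest probes to similar values on every array, so similar sums of these markers do not show equal hepatocyte content. Of these 8 markers, Apoa1, Cps1 and Hnf4a were lower in Pparα-/- mice than in WT on both diets (Hnf4a -0.43 on CTRL and -0.29 on HFD), and the same 3 were lower on CTRL in Pparα hep-/- mice. The shares of all probes called in these comparisons were 34.2%, 45.7% and 24.7%, so that 3 of 8 is no result about these markers as a list. All 16 iron gene probes were above background on all 48 arrays, except that the dimmer Tfrc probe was so on 7 of 8 arrays in Pparα hep-/- mice on HFD and in Pparα-/- mice on CTRL. The 2 Ppara probes were lower in Pparα-/- than in WT mice on both diets (log2 differences from -0.65 to -1.29). Of these, one was lower in Pparα hep-/- mice on both diets (-0.42 and -0.85) and the other was lower on HFD (-0.68) but not called on CTRL (-0.10, adjusted p = 0.454). Where these probes lie relative to the deleted part of the gene was not examined, so they do not check the deletion.

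One mouse stood apart in the genes described here and is therefore shown before the comparisons. Among Pparα-/- mice on CTRL, replicate 8 had a Hamp signal of 7.30 against 14.69 to 16.22 in the other 7 mice, a difference of -8.01 from their mean. Its Hamp2 signal was 9.65 against 15.24 to 16.92, a difference of -6.39. For Hamp, no other of the 48 mice came below 12.59. Tfrc was 9.19 in the same mouse against 6.97 to 8.11 in the other 7, and the second Tfrc probe was 7.61 against 5.87 to 6.81, both above all 47 other mice. Slc40a1 was 11.55, a difference of -0.82, and Bmp6 was 6.24, each below all 47 others. The ferritin light chain was also below all 47 others on both probes (17.78 and 14.62), and the heavy chain Fth1, at 16.95, was below the other 7 of its group. Of the 16 probes, 5 were below and 2 above all 47 other mice.

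Of 19 tested genes of BMP and SMAD signalling, 12 lay within the range of the other 7 in this mouse, among them the SMAD targets Id1, Smad7 and Atoh8. A further 6 lay below it, among them Smad6, another SMAD target (7.68 against 7.71 to 8.25), and 1 lay above. The largest difference was that of Bmp2, the endothelial BMP ligand, at 9.05 against 10.33 to 10.96 in the other 7. Outside this list, and named here after their values were seen, the SMAD target Id3 was 9.65 against 10.76 to 11.74, below all 47 other mice, and Socs3, a target of STAT3, was 12.46 against 10.33 to 11.90. Of the other tested genes of interleukin-6 signalling and the acute phase, Saa2, Orm1, Orm2, Fga, Fgb and Fgg lay above the other 7, Il6st below and the rest within their range. The summed signals of red blood cell markers (387000) and of neutrophil markers (4170) in this mouse were the highest of its group. Those of sinusoidal endothelium (13800), Kupffer cells (18400) and stellate cells (16100) were the lowest of its group. This array had a weight of 0.812 in the model and 14 probes at least 2 log2 units away from the mean of the other 7, against 12 to 134 for the other arrays of the group. The part of these values in the low hepcidin was not tested. The mouse was kept in the comparisons, and the counts and differences of the 10 genes that it changed most are given without it as well.

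**Figure D1:**
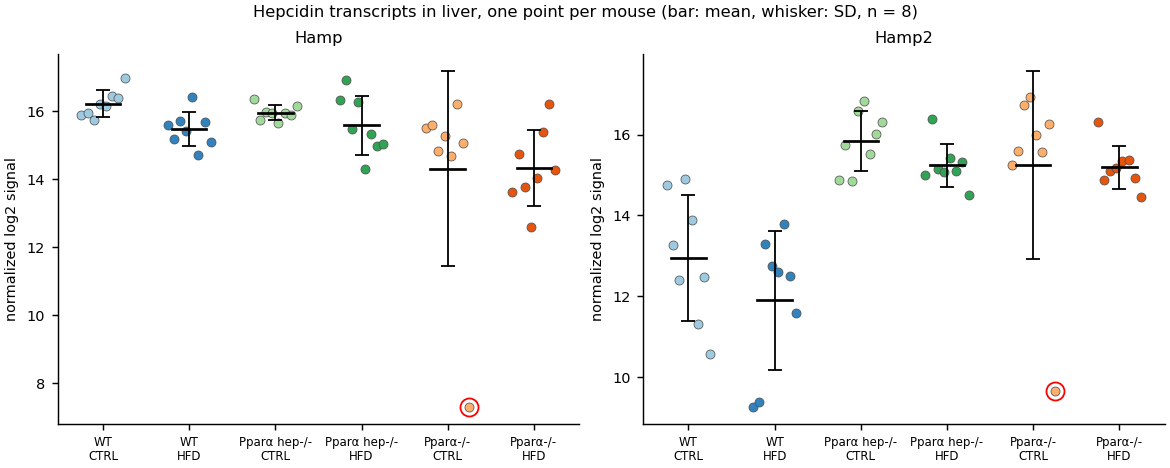
Normalised log2 signal (y axes) of Hamp and Hamp2 in the 6 groups (x axes), with 1 point per mouse, the mean as a bar and the SD as whiskers (n = 8). The circled point is replicate 8 of Pparα-/- mice on CTRL, at 7.30 for Hamp and 9.65 for Hamp2, and for Hamp2 both mutants lie above all WT mice on HFD.

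**Figure D2:**
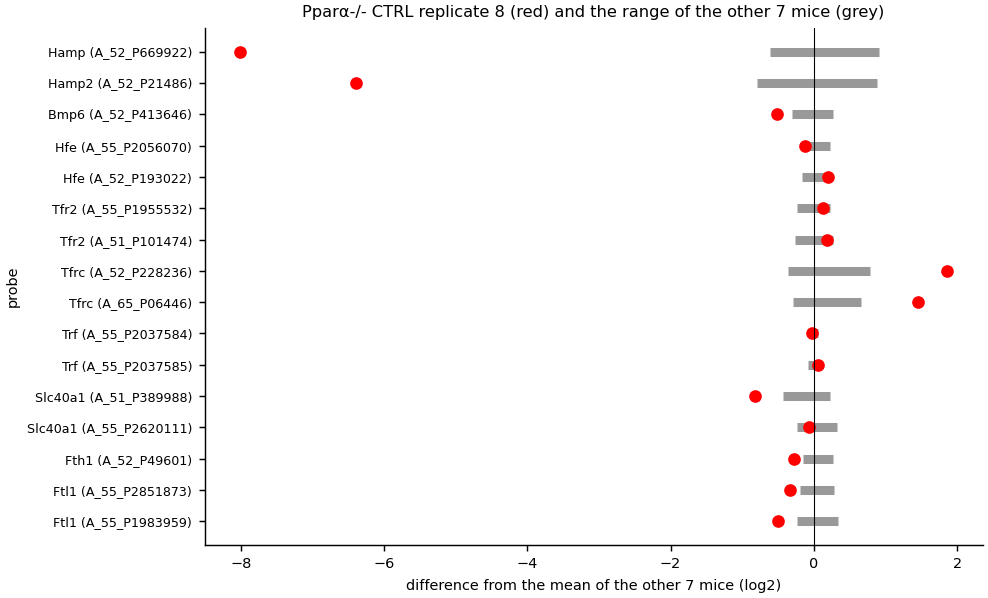
Difference from the mean of the other 7 Pparα-/- mice on CTRL (x axis, log2) for the 16 iron gene probes (y axis), with replicate 8 as a red point and the range of the other 7 mice as a grey bar. Hamp (-8.01) and Hamp2 (-6.39) lie far to the left and Tfrc (1.86) to the right of the grey bars.

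Hamp, the gene for the circulating iron hormone, was not called in any of the 12 comparisons with all mice included. In WT mice the lowest, median and highest signals were 15.75, 16.19 and 16.98 on CTRL. On HFD they were 14.70, 15.51 and 16.40. Values of the 2 diets overlapped, and the difference of -0.59 (SE 0.67, n = 8 per group) was not called (adjusted p = 0.616). In Pparα hep-/- mice the signals ran from 15.65 over 15.94 to 16.36 on CTRL and from 14.31 over 15.40 to 16.91 on HFD (difference -0.48, SE 0.57, adjusted p = 0.593). Those of Pparα-/- mice ran from 7.30 over 15.17 to 16.22 on CTRL and from 12.59 over 14.15 to 16.21 on HFD (difference -0.06, SE 0.59, adjusted p = 0.955). Ordered by group mean, Hamp was highest in WT mice on CTRL (16.22 ± 0.39, SD), followed by Pparα hep-/- mice on CTRL (15.96 ± 0.22) and on HFD (15.58 ± 0.86), WT mice on HFD (15.48 ± 0.51) and Pparα-/- mice on HFD (14.33 ± 1.12) and CTRL (14.31 ± 2.87). The neighbours in this order overlapped. Without replicate 8 the mean of Pparα-/- mice on CTRL was 15.31 ± 0.52 (n = 7), which puts that group above Pparα-/- mice on HFD.

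The signal of Hamp was lowest in the Pparα-/- groups, and whether that difference was called depended on single mice. On CTRL, Pparα-/- minus WT was -1.58 (SE 0.68, 95% interval -2.95 to -0.22, adjusted p = 0.0661) and Pparα-/- minus Pparα hep-/- was -1.36 (SE 0.61, adjusted p = 0.0995). Without replicate 8 of the Pparα-/- mice on CTRL these were -0.72 (SE 0.40, adjusted p = 0.164) and -0.44 (adjusted p = 0.409). Without replicate 6 of that group, in contrast, they were -2.08 (adjusted p = 0.0219) and -1.89 (adjusted p = 0.0316), and without its replicate 2 the difference from WT was -1.82 (adjusted p = 0.0467). On HFD, Pparα-/- minus WT was -1.06 (SE 0.58, adjusted p = 0.137) and Pparα-/- minus Pparα hep-/- was -0.94 (SE 0.55, adjusted p = 0.202).

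The comparisons on HFD do not contain replicate 8, but its value widened the spread that all groups share in the model. When it was left out, the same 2 differences on HFD were -1.06 (SE 0.33, adjusted p = 0.00838) and -0.97 (SE 0.31, adjusted p = 0.0149), and both were called. The effect of HFD in Pparα-/- mice became -0.95 (SE 0.35, adjusted p = 0.0479). With replicate 8 kept but replicate 7 of Pparα-/- mice on HFD left out, Pparα-/- minus WT on HFD was -1.56 (adjusted p = 0.0289) and Pparα-/- minus Pparα hep-/- was -1.43 (adjusted p = 0.0497). The arrays had been washed in 2 batches. Within them, Pparα-/- minus WT on HFD was -1.53 (adjusted p = 0.00782) and -0.45 (adjusted p = 0.721), and Pparα-/- minus Pparα hep-/- was -1.62 (adjusted p = 0.00364) and -0.12 (adjusted p = 0.949). The difference was thus larger in one wash batch than in the other.

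Hamp2, the second hepcidin gene, was several fold higher in both mutants than in WT mice on both diets. In WT mice the lowest, median and highest signals were 10.58, 12.88 and 14.89 on CTRL and 9.25, 12.56 and 13.79 on HFD. Those of Pparα hep-/- mice were 14.84, 15.88 and 16.82 on CTRL and 14.50, 15.12 and 16.38 on HFD. Those of Pparα-/- mice were 9.65, 15.79 and 16.92 on CTRL and 14.46, 15.13 and 16.30 on HFD. On HFD all mice of both mutants were above all WT mice. On CTRL, 1 WT mouse was above the lowest Pparα hep-/- mice, and replicate 8 of the Pparα-/- mice was below all WT mice.

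On CTRL, Hamp2 in Pparα hep-/- mice exceeded WT 6.33-fold (log2 difference 2.66, SE 0.60, adjusted p = 0.000762). In Pparα-/- mice it exceeded WT 3.87-fold (1.95, SE 0.62, adjusted p = 0.0123), or 2.59 on the log2 scale without replicate 8 (adjusted p = 2.58e-05). On HFD the differences from WT were 2.99 (SE 0.54, 7.96-fold, adjusted p = 5.04e-05) in Pparα hep-/- and 2.96 (SE 0.54, 7.79-fold, adjusted p = 1.26e-05) in Pparα-/- mice. Within the 2 wash batches, Pparα hep-/- minus WT was 2.92 and 2.60 on CTRL (adjusted p = 0.00156 and 0.0681) and 2.59 and 3.45 on HFD (adjusted p = 0.000805 and 0.00939). Pparα-/- minus WT was 3.17 and 1.34 on CTRL (adjusted p = 9.81e-05 and 0.376) and 2.67 and 3.08 on HFD (adjusted p = 0.000185 and 0.00251). The mutants were not called different from each other, with 95% intervals of the Pparα-/- minus Pparα hep-/- difference from -1.84 to 0.42 on CTRL (difference -0.71) and from -1.04 to 0.98 on HFD. Without replicate 8 the difference on CTRL was -0.04 (-0.90 to 0.82). These comparisons share the WT mice, which also differed widely among themselves (SD 1.55 on CTRL and 1.71 on HFD).

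Hamp2 was not called for the diet in any genotype. HFD minus CTRL was -1.18 in WT (SE 0.61, adjusted p = 0.191), -0.85 in Pparα hep-/- (SE 0.52, adjusted p = 0.257) and -0.17 in Pparα-/- mice (SE 0.54, adjusted p = 0.859). Without replicate 8 the last was -0.81 (SE 0.42, adjusted p = 0.164). The differences in the response to HFD were 0.33 between Pparα hep-/- and WT, 1.01 between Pparα-/- and WT and 0.68 between the mutants, and none was called. Without replicate 8 they were 0.38, 0.37 and -0.01.

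Counted over all 16 probes, the share of iron gene probes called ran from below to above the share of all probes, depending on the comparison. For the diet, 1 of 16 probes was called in WT mice (6.25%, against 18.7% of all probes), 5 in Pparα hep-/- mice (31.2%, against 20.2%) and 6 in Pparα-/- mice (37.5%, against 24.8%). On CTRL, 6 were called between Pparα hep-/- and WT mice (against 24.7%), 5 between Pparα-/- and WT mice (31.2%, against 34.2%) and 8 between the mutants (50%, against 25.2%). On HFD, 5 were called between Pparα hep-/- and WT mice (against 26.7%), 9 between Pparα-/- and WT mice (56.2%, against 45.7%) and 7 between the mutants (43.8%, against 30.6%). For the difference in the response to HFD, 0 were called between Pparα hep-/- and WT (against 10.4%), 1 between Pparα-/- and WT (against 14.3%) and 1 between the mutants (against 3.42%). Without replicate 8 of the Pparα-/- mice on CTRL, the last of these was 0. The diet then gave 6 calls in Pparα hep-/- and 7 in Pparα-/- mice, and on HFD there were 6 between Pparα hep-/- and WT mice, 11 between Pparα-/- and WT mice and 8 between the mutants, with no other count changed. The shares of all probes called were then 20.7% and 20.8% for the diet in these genotypes, 26.9%, 45.7% and 30.5% on HFD in that order, and 3.18% for the difference in response between the mutants. The median log2 difference over the brightest probes of the 10 genes was between -0.36 (between the mutants on CTRL) and 0.20, whereas that over all probes was between -0.03 and 0.01.

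**Figure D3:**
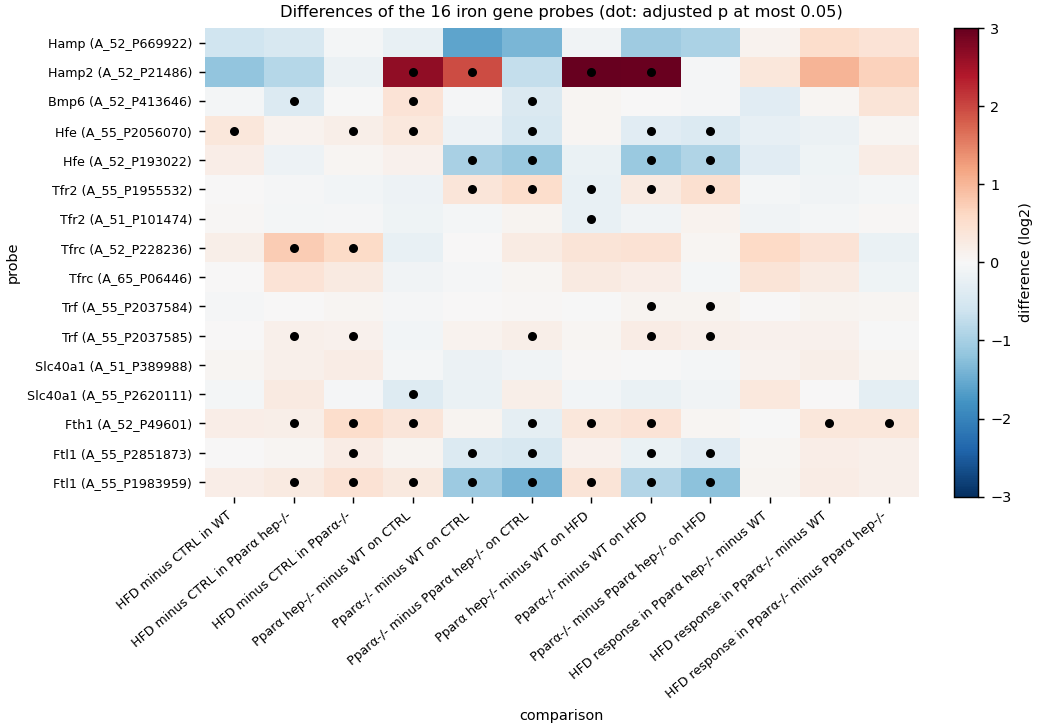
Fitted log2 differences (colour, red for higher and blue for lower) of the 16 iron gene probes (y axis) in the 12 comparisons (x axis), with a dot where the adjusted p was at most 0.05. Hamp has no dot, Hamp2 has dots in the 4 comparisons of a mutant with WT, and the dots of Hfe and Ftl1 gather in the comparisons of Pparα-/- mice.

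Of the genes upstream of hepcidin, Bmp6, the BMP ligand that rises with liver iron, differed little. Its lowest, median and highest signals were 6.27, 6.88 and 7.11 in WT mice on CTRL and 6.74, 7.24 and 7.32 in Pparα hep-/- mice on CTRL, a difference of 0.40 (SE 0.13, adjusted p = 0.0164). In Pparα hep-/- mice on HFD they were 6.42, 6.76 and 7.59, lower than on CTRL by a log2 difference of -0.40 (SE 0.11, adjusted p = 0.00752). In Pparα-/- mice on CTRL they were 6.24, 6.73 and 7.02, a difference of -0.43 from Pparα hep-/- mice (SE 0.12, adjusted p = 0.00485). Pparα hep-/- mice on CTRL were thus the highest group by median. Within the 2 wash batches these 3 differences were 0.39 and 0.53, -0.58 and -0.26, and -0.47 and -0.41. The first was lost without replicate 1 (0.29, adjusted p = 0.0997) or 7 (0.33, adjusted p = 0.0534) of WT mice on CTRL, and the second without replicate 6 of Pparα hep-/- mice on HFD (-0.33, adjusted p = 0.0647). In WT mice on HFD the median was 6.67 and in Pparα-/- mice on HFD it was 6.70.

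Hfe, mutated in the common form of hereditary haemochromatosis, was lower in Pparα-/- mice, and its 2 probes differed in how much. On the dimmer probe (mm9 chr13:23794468-23794527) the lowest, median and highest signals were 7.59, 7.86 and 8.53 in WT mice on CTRL and 6.72, 6.96 and 7.09 in Pparα-/- mice on CTRL. On HFD they were 7.74, 8.08 and 8.28 in WT and 6.73, 6.99 and 7.16 in Pparα-/- mice. Pparα hep-/- mice had 7.55, 8.11 and 8.24 on CTRL and 7.39, 7.86 and 8.16 on HFD. All Pparα-/- mice were below all mice of the other genotypes on both diets.

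On this dimmer Hfe probe, Pparα-/- minus WT was -0.98 (SE 0.11, adjusted p = 6.62e-10) on CTRL and -1.11 (adjusted p = 1.91e-13) on HFD. Pparα-/- minus Pparα hep-/- was -1.12 (adjusted p = 9.89e-13) and -0.90 (adjusted p = 2.04e-11). Within the 2 wash batches the differences from WT were -0.92 and -1.04 on CTRL and -1.21 and -1.03 on HFD. On the brighter Hfe probe (mm9 chr13:23795710-23795769), Pparα-/- minus Pparα hep-/- was -0.47 on CTRL (adjusted p = 7.26e-07) and -0.40 on HFD (adjusted p = 1.85e-06), with no overlap on either diet. On that probe Pparα-/- minus WT was -0.33 on HFD (adjusted p = 6.81e-05) and was not called on CTRL, where the medians were 10.79 and 10.96. The brighter probe was also higher on HFD than on CTRL in WT mice by 0.35 (SE 0.08, adjusted p = 0.000948), from a median of 10.96 to 11.41, and Pparα hep-/- mice exceeded WT on CTRL by 0.31 (adjusted p = 0.00159). In Pparα-/- mice HFD minus CTRL was 0.18 (adjusted p = 0.0485), a call that 25 of the 48 fits that each left out 1 mouse did not keep. The dimmer probe was not called for the diet in any genotype. Under scaling by the 75th percentile, the response of the brighter probe to HFD was called lower in Pparα hep-/- than in WT mice (-0.32, adjusted p = 0.0176), against -0.24 (adjusted p = 0.112) with quantiles.

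Tfr2, the transferrin receptor of hepatocytes that also signals to hepcidin, was higher in Pparα-/- mice on its brighter probe only. The lowest, median and highest signals on that probe were 15.13, 15.54 and 15.86 in WT mice on CTRL, 15.18, 15.39 and 15.60 in Pparα hep-/- mice on CTRL, and 15.71, 15.97 and 16.16 in Pparα-/- mice on CTRL. On HFD they were 15.38, 15.66 and 16.14 in WT, 15.24, 15.47 and 15.58 in Pparα hep-/- and 15.72, 15.87 and 16.14 in Pparα-/- mice. Pparα-/- and Pparα hep-/- mice did not overlap on either diet. Pparα-/- minus Pparα hep-/- was 0.52 on CTRL (adjusted p = 7.15e-08) and 0.47 on HFD (adjusted p = 4.43e-08), and Pparα-/- minus WT was 0.36 on CTRL (adjusted p = 0.00023). On HFD, Pparα-/- minus WT was 0.26 (adjusted p = 0.00138), but 0.08 (adjusted p = 0.448) when arrays were scaled by their 75th percentile instead of by quantiles. The probes overlap by a few bases on mm9 (chr5:138028646-138028705 and chr5:138028592-138028651), yet on the dimmer one Pparα-/- minus WT on CTRL was -0.05 and no comparison with Pparα-/- mice was called. Both probes were lower in Pparα hep-/- than in WT mice on HFD (-0.22, adjusted p = 0.0138, and -0.23, adjusted p = 0.0213). Without replicate 6 of Pparα hep-/- mice on HFD these were -0.18 (adjusted p = 0.0742) and -0.20 (adjusted p = 0.0789), and the second was -0.19 and not called without replicate 7 of that group or replicate 1 of WT mice on HFD.

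Tfrc, the receptor that brings transferrin-bound iron into cells, was higher on HFD in both mutants on its brighter probe. In Pparα hep-/- mice the lowest, median and highest signals were 6.79, 7.40 and 8.01 on CTRL and 7.50, 8.01 and 8.43 on HFD. Pparα-/- mice had 6.97, 7.30 and 9.19 on CTRL and 7.28, 8.16 and 8.65 on HFD. In WT mice they were 7.33, 7.58 and 7.81 on CTRL and 7.17, 7.72 and 8.27 on HFD. The diets overlapped in each genotype.

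HFD minus CTRL for Tfrc was 0.77 (SE 0.19, 1.71-fold, adjusted p = 0.00325) in Pparα hep-/- mice (unweighted means 7.99 and 7.46), 0.58 (SE 0.20, adjusted p = 0.0265) in Pparα-/- mice and 0.17 (SE 0.22, adjusted p = 0.677) in WT mice. The difference between Pparα hep-/- and WT mice in this response was 0.60 (SE 0.29, adjusted p = 0.182), so the response was not shown to differ between genotypes. Under scaling by the 75th percentile this difference was 0.86 (adjusted p = 0.0888), and HFD minus CTRL was 0.97 (adjusted p = 0.000994) in Pparα hep-/- and 0.66 (adjusted p = 0.0308) in Pparα-/- mice. The call in Pparα-/- mice was lost without replicate 1 (0.54), 2 (0.48), 5 (0.51) or 6 (0.43) on CTRL and without replicate 7 (0.55) or 8 (0.51) on HFD, whereas without replicate 8 on CTRL the difference was 0.78 (adjusted p = 0.00154). Within the wash batches it was 0.68 and 0.81 in Pparα hep-/- mice (adjusted p = 0.107 and 0.0823), whereas Pparα-/- mice had 0.29 and 0.89 (adjusted p = 0.479 and 0.0398). The dimmer Tfrc probe gave 0.40 (adjusted p = 0.0601) and 0.27 (adjusted p = 0.231), which became 0.39 (adjusted p = 0.0354) and 0.41 (adjusted p = 0.0371) without replicate 8 and 0.61 (adjusted p = 0.0401) and 0.44 (adjusted p = 0.174) under the percentile scaling. On HFD, Pparα-/- minus WT was 0.44 on the brighter probe (adjusted p = 0.0626, and 0.0306 without replicate 8).

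**Figure D4:**
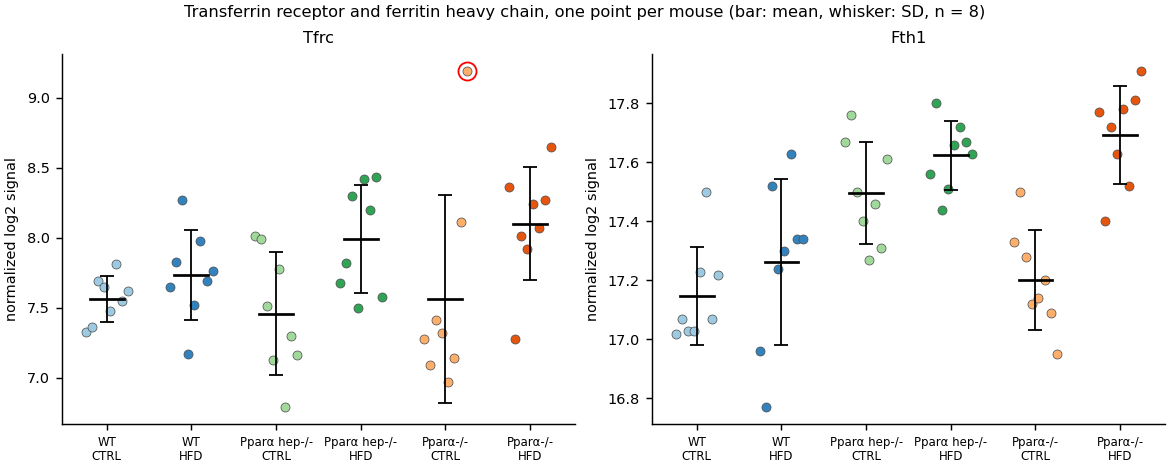
Normalised log2 signal (y axes) of the brighter Tfrc probe and of Fth1 in the 6 groups (x axes), with 1 point per mouse, the mean as a bar and the SD as whiskers (n = 8). The circled Tfrc point, at 9.19, is replicate 8 of Pparα-/- mice on CTRL, and Fth1 is higher on HFD than on CTRL in Pparα-/- mice by 0.53.

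Trf, the plasma carrier of iron that hepatocytes make in large amounts, varied within narrow limits in the quantile-normalised data. That normalisation brings the brightest probes to similar values on every array, so the narrow range is not a trait of the gene alone. On the brighter Trf probe all 48 mice were between 18.41 and 18.67, and on the other between 17.96 and 18.51. On the second probe, Pparα-/- minus WT on HFD was 0.23 (adjusted p = 3.94e-05) in the quantile-normalised data but turned to -0.12 under scaling by the 75th percentile. HFD minus CTRL in Pparα-/- mice was likewise 0.14 (adjusted p = 0.0213) and turned to -0.21. On the brighter probe, Pparα-/- minus WT on HFD was 0.09 (adjusted p = 0.0157) and turned to -0.23, and Pparα-/- minus Pparα hep-/- on HFD was 0.09 (adjusted p = 0.0102) and turned to -0.04. The direction of these Trf differences is therefore not settled by the data. On the second probe, Pparα-/- minus Pparα hep-/- was 0.17 on CTRL (adjusted p = 0.00361) and 0.16 on HFD (adjusted p = 0.00175), and HFD minus CTRL in Pparα hep-/- mice was 0.15 (adjusted p = 0.0128). Under the percentile scaling these were 0.29 (adjusted p = 0.00322), 0.08 (adjusted p = 0.407) and 0 (adjusted p = 0.987). The last was lost without replicate 4 on CTRL (0.13) or replicate 6 on HFD (0.12) of these mice, and on the same probe HFD minus CTRL in Pparα-/- mice was lost without replicate 7 on CTRL (0.12). On the brighter probe the calls on HFD were lost without replicate 8 of WT mice (0.07) and without replicate 6 of Pparα hep-/- mice (0.08).

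Slc40a1, which encodes ferroportin, the target of hepcidin, was not called on its brighter probe in any of the 12 comparisons. The group medians lay between 12.37 and 12.56 and all groups overlapped. HFD minus CTRL was 0.05 in WT (95% interval -0.21 to 0.31), 0.16 in Pparα hep-/- (-0.06 to 0.38) and 0.22 in Pparα-/- mice (0 to 0.45, adjusted p = 0.144). On the dimmer probe, Pparα hep-/- minus WT on CTRL was -0.39 (SE 0.12, adjusted p = 0.016), with medians of 7.27 and 7.62 and overlapping groups. That call was lost without replicate 1 (-0.32, adjusted p = 0.0692) or 5 (-0.30, adjusted p = 0.0884) of WT mice on CTRL, and the brighter probe gave -0.07 for the same comparison.

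Fth1, the ferritin heavy chain, which oxidises iron for storage, was higher on HFD in Pparα-/- mice. The lowest, median and highest signals in these mice were 16.95, 17.17 and 17.50 on CTRL and 17.40, 17.74 and 17.91 on HFD. In WT mice they were 17.02, 17.07 and 17.50 on CTRL and 16.77, 17.32 and 17.63 on HFD. Pparα hep-/- mice had 17.27, 17.48 and 17.76 on CTRL and 17.44, 17.64 and 17.80 on HFD. The diets overlapped in each genotype.

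HFD minus CTRL for Fth1 was 0.53 (SE 0.07, 1.45-fold, adjusted p = 4.64e-07) in Pparα-/- mice, with 0.46 and 0.58 within the wash batches, 0.18 (adjusted p = 0.0406) in Pparα hep-/- and 0.20 (adjusted p = 0.0595) in WT mice. The call in Pparα hep-/- mice was lost in 9 of the 48 fits that each left out 1 mouse, namely without replicate 3, 4, 5, 6 or 7 on CTRL or 5, 6, 7 or 8 on HFD (0.15 to 0.19). The response to HFD was larger in Pparα-/- than in WT mice by 0.33 (SE 0.10, adjusted p = 0.0264) and than in Pparα hep-/- mice by 0.35 (SE 0.10, adjusted p = 0.0296). Without replicate 8 of the Pparα-/- mice on CTRL these were 0.29 (adjusted p = 0.0487) and 0.31 (adjusted p = 0.0553). The first was lost without replicate 8 of Pparα-/- mice on HFD (0.30, adjusted p = 0.0518). The second was also lost without replicate 6 or 7 on CTRL or 7 or 8 on HFD of Pparα-/- mice, or replicate 2 or 8 on CTRL or 6 on HFD of Pparα hep-/- mice (0.31 to 0.35). Under scaling by the 75th percentile, however, HFD minus CTRL in Pparα-/- mice was 0.10 (adjusted p = 0.138), the difference from WT in the response turned to -0.14 (adjusted p = 0.194) and that from Pparα hep-/- was 0.05 (adjusted p = 0.773). The larger response of Fth1 in Pparα-/- mice thus depended on how the arrays were scaled. Between genotypes, Pparα-/- minus Pparα hep-/- on CTRL was -0.28 (adjusted p = 0.00252), or -0.11 (adjusted p = 0.113) under the percentile scaling, and Pparα hep-/- minus WT was 0.36 on CTRL (adjusted p = 0.00034) and 0.34 on HFD (adjusted p = 0.000202), and it was 0.35 and 0.15 (adjusted p = 0.0163) under the percentile scaling. Pparα-/- minus WT on HFD was 0.41 (adjusted p = 2.22e-06), and 0.09 (adjusted p = 0.132) under that scaling.

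Ftl1, the ferritin light chain, was lower in Pparα-/- mice than in the other genotypes, whatever the diet and on both of its probes. On the dimmer probe, whose 60 bases were placed over 482 bases of the genome (mm9 chr7:52714014-52714495), the lowest, median and highest signals were 15.93, 16.19 and 16.77 in WT mice on CTRL and 15.88, 16.35 and 16.60 on HFD. Pparα hep-/- mice had 16.24, 16.48 and 16.83 on CTRL and 16.51, 16.75 and 16.92 on HFD. Pparα-/- mice had 14.62, 14.96 and 15.46 on CTRL and 15.10, 15.50 and 15.74 on HFD. All Pparα-/- mice were below all mice of the other genotypes on either diet.

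On the dimmer Ftl1 probe, Pparα-/- minus WT was -1.09 (SE 0.12, adjusted p = 1.73e-10) on CTRL and -0.87 (adjusted p = 9.59e-10) on HFD, with -1.13 and -1.02, and -0.95 and -0.79, within the wash batches. Pparα-/- minus Pparα hep-/- was -1.39 (adjusted p = 5.18e-15) on CTRL and -1.24 (adjusted p = 4.64e-15) on HFD. Under scaling by the 75th percentile the differences from WT were -1.10 and -1.01. On the brighter probe (mm9 chr7:52713318-52713377) the differences had the same direction and were smaller, with -0.42 (adjusted p = 4.1e-07) and -0.20 (adjusted p = 0.00143) from WT, and -0.49 (adjusted p = 7.2e-10) and -0.33 (adjusted p = 5.88e-07) from Pparα hep-/- mice, on CTRL and HFD. Under the percentile scaling the differences from WT on this probe were -0.37 and -0.52 (adjusted p = 1.1e-05 and 6.54e-11). Pparα hep-/- mice were higher than WT mice on the dimmer probe, by 0.30 on CTRL (adjusted p = 0.0425) and 0.38 on HFD (adjusted p = 0.00417), the latter 0.21 (adjusted p = 0.0341) under the percentile scaling. The first of these was lost without replicate 1, 2, 4 or 7 of WT or 1, 2, 3 or 8 of Pparα hep-/- mice on CTRL (0.24 to 0.29). The brighter probe was not called on HFD (0.13, adjusted p = 0.0646). It was called without replicate 8 of Pparα-/- mice on CTRL (0.13, adjusted p = 0.0406), but under the percentile scaling the difference was -0.08 (adjusted p = 0.225). HFD minus CTRL on the dimmer probe was 0.28 (adjusted p = 0.0318) in Pparα hep-/- mice, a call lost without replicate 4, 5, 6 or 7 on CTRL or 6 or 7 on HFD (0.24 to 0.27), and 0.43 (adjusted p = 0.00163) in Pparα-/- mice. Under the percentile scaling these were 0.08 (adjusted p = 0.449) and 0.26 (adjusted p = 0.015). On the brighter probe it was 0.22 (adjusted p = 0.00219) in Pparα-/- mice and turned to -0.13 (adjusted p = 0.062) under the percentile scaling.

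**Figure D5:**
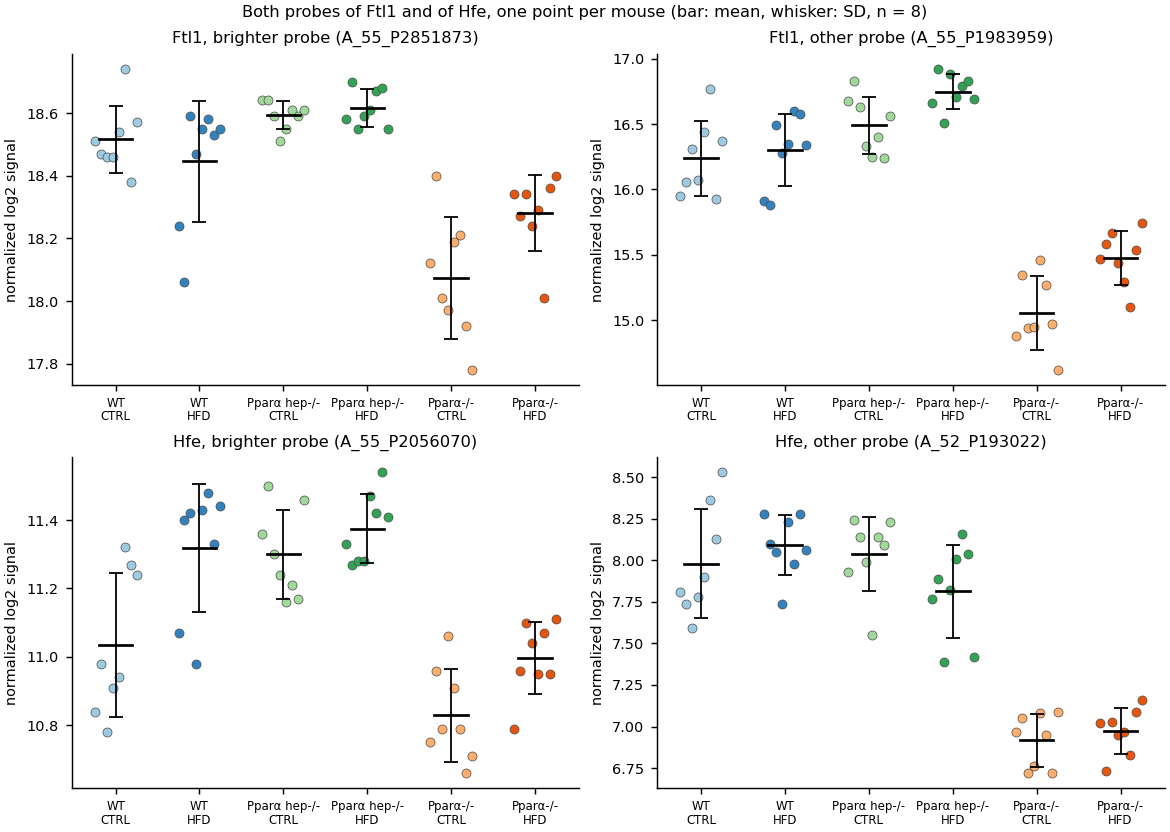
Normalised log2 signal (y axes) of both probes of Ftl1 and of Hfe in the 6 groups (x axes), with 1 point per mouse, the mean as a bar and the SD as whiskers (n = 8). On the dimmer probe of each gene all Pparα-/- mice lie below all mice of the other genotypes, and on the brighter probes the gap from WT is smaller.

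Genes that carry the BMP signal to hepcidin were called in both directions, and the count in each comparison stands beside the share of all probes called there. A count near that share, for these and the other lists of genes, is no result about the list. Of 20 genes listed for BMP and SMAD signalling 19 were tested, since Erfe was too dim. On CTRL, 8 were lower and 1 higher in Pparα hep-/- mice than in WT, and 8 were lower and 0 higher in Pparα-/- than in WT mice (7 and 1 without replicate 8, against 34.1% of all probes in that fit), with median log2 differences of -0.15 and -0.19. Of all probes, 24.7% were called in the former comparison (4476 lower, 3765 higher) and 34.2% in the latter (6219 lower, 5190 higher). On HFD the counts were 2 lower and 1 higher, and 5 lower and 4 higher, with medians of 0.03 and 0.05, against 26.7% and 45.7% of all probes called. For the diet, 4 fell and 1 rose in WT mice, 3 fell and 1 rose in Pparα hep-/- mice, and 0 fell and 4 rose in Pparα-/- mice (2 without replicate 8, against 20.8% of all probes in that fit), against 18.7%, 20.2% and 24.8% of all probes. Of those 4, Furin turned from 0.10 to -0.30 (adjusted p = 0.000124) under the percentile scaling and Tmprss6 was no longer called, so this count depended on the scaling.

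Id1, a direct target of the SMAD proteins in hepatocytes, had lowest, median and highest signals of 8.72, 10.17 and 10.88 in WT mice and of 7.06, 7.93 and 9.57 in Pparα-/- mice on CTRL. The difference was -1.69 (adjusted p = 4.39e-05), but it was -2.87 in one wash batch and -0.40 in the other. Pparα hep-/- minus WT on CTRL was -0.98 (SE 0.31, adjusted p = 0.0155), with -1.71 and -0.25 within the batches, and Pparα-/- minus WT on HFD was -0.93 (adjusted p = 0.00512), with -1.07 and -0.82. Smad9, a SMAD of the BMP branch, was not well above background on any array of the Pparα-/- mice. Its signal was at least 4.36-fold lower there than in WT mice on CTRL and at least 3.24-fold lower on HFD, as a bound set by the lowest signal called above background on each array (limma adjusted p = 5.33e-12 and 3.44e-12). Pparα hep-/- minus WT for Smad9 was -0.87 on CTRL (adjusted p = 0.00321) and -1.10 on HFD (adjusted p = 6.78e-05).

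Hjv (hemojuvelin), the BMP co-receptor without which hepcidin is barely made, had a different pattern. It rose on HFD in WT mice by 0.54 (adjusted p = 0.00236), from a median of 9.87 to 10.35, and this response was smaller in Pparα hep-/- (difference in response -0.52, adjusted p = 0.0426) and Pparα-/- mice (-0.67, adjusted p = 0.00813). On CTRL, Pparα hep-/- mice exceeded WT by 0.72 (adjusted p = 3.43e-05), and on HFD Pparα-/- minus WT was -0.45 (adjusted p = 0.00117). Smad1 fell on HFD in WT mice, with a log2 difference of -0.41 (adjusted p = 4.88e-05), and the response of Smad5 to HFD was higher by 0.36 in each mutant than in WT mice (adjusted p = 0.000823 and 0.000469). Tmprss6, the protease that cleaves hemojuvelin, in Pparα-/- mice exceeded WT by 0.19 on HFD (adjusted p = 0.00413), and its difference of 0.16 between the diets in Pparα-/- mice was -0.03 (adjusted p = 0.746) under the percentile scaling, where the median of all probes was -0.06. Smad6, an inhibitor of the pathway, was higher on HFD in Pparα-/- mice by 0.32 (adjusted p = 0.0165), and for Atoh8, a SMAD target, Pparα-/- minus WT on HFD was -0.50 (adjusted p = 0.00604). Fgl1, a liver protein that antagonises BMP6, was lower on CTRL in Pparα hep-/- mice than in WT (-0.90), and Pparα-/- mice exceeded Pparα hep-/- mice by 1.45 on CTRL and 1.13 on HFD, all called. The ligand Bmp2 and the inhibitor Smad7 were not called in any of the 12 comparisons.

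Among 18 tested genes of iron uptake, reduction, storage and export, 7 rose and 3 fell on HFD in Pparα hep-/- mice, 7 rose and 1 fell in Pparα-/- mice (5 and 1 without replicate 8, against 20.8% in that fit), and 2 rose and 1 fell in WT mice. The shares of all probes called were 20.2%, 24.8% and 18.7%. Slc11a2 (DMT1), which moves ferrous iron across membranes, was lower in Pparα-/- mice, with signals of 7.01, 7.53 and 8.58 (lowest, median and highest) against 8.70, 8.81 and 9.14 in WT mice on CTRL. The groups did not overlap, and the differences from WT were -1.42 (adjusted p = 1.42e-09) on CTRL and -0.96 (adjusted p = 2.51e-07) on HFD. On HFD it was higher than on CTRL by 0.85 (adjusted p = 2.12e-05) in Pparα hep-/- and 0.75 (adjusted p = 0.000169) in Pparα-/- mice. The ferric reductase Steap2 was lower in Pparα-/- than in Pparα hep-/- mice on CTRL, with no overlap and a difference of -1.11 (adjusted p = 1.97e-08). On HFD, Pparα hep-/- mice exceeded WT by 0.63 for Steap2 (adjusted p = 0.000455). Its response to HFD in Pparα-/- mice exceeded that of WT by 1.14 (adjusted p = 0.000209). Steap1, a related protein, was lower on CTRL in Pparα hep-/- mice, with 3 of 8 arrays above background, than in WT (means 5.59 and 6.53, adjusted p = 3.62e-07). With most arrays of that group not well above background, the size of this difference and of the difference in its response to HFD (adjusted p = 0.00149) is not given.

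Lcn2, a siderophore-binding protein of the acute phase, had the widest range in this list. Its lowest, median and highest signals were 8.59, 11.02 and 15.41 in WT mice on CTRL and 15.37, 15.68 and 16.90 in Pparα-/- mice on HFD. Pparα-/- minus WT was 3.19 on CTRL (adjusted p = 0.000374) and 3.49 on HFD (adjusted p = 6.77e-06), and HFD minus CTRL was 3.19 (adjusted p = 0.00015) in Pparα hep-/- and 1.83 (adjusted p = 0.0256) in Pparα-/- mice. Neutrophils also make Lcn2, and of 5 of their markers 3 were higher on HFD than on CTRL in Pparα-/- mice, and 3 were higher and 1 lower there than in WT mice on HFD, against 24.8% and 45.7% of all probes. The model gave differences of 1.94 for S100a9 (adjusted p = 4.18e-05) and 1.67 for S100a8 (adjusted p = 0.000444) in the latter comparison, whereas the unweighted group means of S100a8 were 9.45 and 8.61. The lowest, median and highest sums of these markers were 1020, 1490 and 31400 in WT and 2390, 3630 and 6120 in Pparα-/- mice on HFD, and their part in the Lcn2 difference was not tested. Cp (ceruloplasmin), a ferroxidase that works with ferroportin, was higher on HFD in Pparα-/- mice than in WT, by 0.75 (adjusted p = 3.54e-08), and higher on HFD than on CTRL in Pparα-/- mice by 0.52 (adjusted p = 0.000261). Slc39a14 (ZIP14), which takes up iron that is not bound to transferrin, had a Pparα hep-/- minus WT difference of 0.38 on HFD (adjusted p = 0.0465). Of the regulators of ferritin and Tfrc, Ireb2 (IRP2) fell on HFD in Pparα hep-/- and Pparα-/- mice, with differences of -0.24 and -0.27, and Aco1 (IRP1) rose on HFD in WT mice by 0.24. Fbxl5, which sends IRP2 to degradation, exceeded the WT level in Pparα-/- mice by 0.19 on CTRL and 0.25 on HFD. Ncoa4, which delivers ferritin to lysosomes, was higher on HFD in Pparα hep-/- mice than in WT (0.25) and than in Pparα-/- mice (Pparα-/- minus Pparα hep-/-, -0.34). Pcbp1, an iron chaperone for ferritin, had a Pparα hep-/- minus WT difference of 0.27 on HFD (adjusted p = 0.00149), and its relative Pcbp2 fell on HFD in Pparα hep-/- mice, with a difference of -0.29 (adjusted p = 0.000702).

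Of 23 tested genes of haem and iron-sulphur metabolism, 8 rose and 0 fell on HFD in WT mice, 8 rose and 2 fell in Pparα hep-/- mice, and 8 rose and 3 fell in Pparα-/- mice (7 and 3 without replicate 8, against 20.8% in that fit), against 18.7%, 20.2% and 24.8% of all probes. Between Pparα-/- and WT mice, 7 were higher and 1 lower on CTRL, and 10 were higher and 5 lower on HFD (9 and 5 without replicate 8, against 45.7% in that fit), against 34.2% and 45.7%. Alad, the enzyme that makes porphobilinogen, was higher in all Pparα-/- mice (14.64, 14.87 and 15.28 on CTRL) than in all WT mice (13.35, 13.44 and 13.69). The difference was 1.41 (SE 0.08, 2.66-fold, adjusted p = 3.69e-18) on CTRL and 1.28 (adjusted p = 3.18e-19) on HFD. Fech (ferrochelatase), which inserts iron in the last step, was lower in Pparα-/- mice than in WT, with differences of -0.72 (adjusted p = 8.88e-14) and -0.63 (adjusted p = 3.81e-14) on CTRL and HFD, and Pparα hep-/- minus WT was -0.33 on CTRL (adjusted p = 2.06e-05). The mutants differed in the same genes, with Pparα-/- minus Pparα hep-/- of 1.21 and 1.13 for Alad and -0.39 and -0.44 for Fech on CTRL and HFD, all called. Cpox, another enzyme of the pathway, rose on HFD in WT mice by 0.71 (adjusted p = 1.55e-06), and its response was smaller in Pparα hep-/- (-0.53, adjusted p = 0.00619) and in Pparα-/- mice (-0.61, adjusted p = 0.00121). Of 6 tested markers of red blood cells and their precursors, which also make haem, Hbb-b2 (2.50, adjusted p = 3.09e-07) and Alas2 (0.88, adjusted p = 3.27e-06) were higher and 0 lower for Pparα-/- minus WT on CTRL, and Hbb-b2 alone was called on HFD (2.26). The similar globin genes Hbb-b1 and Hbb-bt (0.84 and 0.46) and the markers Hba-a1 (0.28) and Slc4a1 (-0.27) were not called on CTRL. Between the mutants, Pparα-/- minus Pparα hep-/- was 1.70 for Hbb-b2 and 0.63 for Alas2 on CTRL, and 2.11 for Hbb-b2 on HFD. These were the only calls among the 6 markers there, against 25.2% and 30.6% of all probes. Without replicate 8, 1 marker was also lower on CTRL, against 24.5% in that fit. The part of red blood cells and their precursors in the differences of the haem genes was not tested.

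Of the genes of haem breakdown, Hmox1 (haem oxygenase) was higher on HFD in Pparα-/- mice by 0.57 (adjusted p = 0.0138) and higher there than in WT mice by 0.60 (adjusted p = 0.00352). The biliverdin reductase Blvrb rose on HFD by 0.52 (adjusted p = 1.6e-05) in Pparα hep-/- and by 0.59 (adjusted p = 3.34e-06) in Pparα-/- mice, with no overlap between diets in either, and Blvra rose in WT mice by 0.37 (adjusted p = 3.7e-05). On CTRL, Blvra in Pparα hep-/- mice exceeded WT by 0.30 (adjusted p = 0.000284). Of the mitochondrial iron importers, Slc25a28 fell on HFD in Pparα hep-/- mice (-0.37, adjusted p = 3.15e-06) and in Pparα-/- mice (-0.19, adjusted p = 0.00879). Slc25a37 fell on HFD in Pparα-/- mice (-0.37, adjusted p = 0.00281), and neither was called lower on HFD in WT mice. The difference between Pparα hep-/- and WT mice in the response of Slc25a28 was -0.30 (adjusted p = 0.0142). For the iron-sulphur cluster scaffold Iscu, the difference between diets in Pparα hep-/- mice was 0.34 (adjusted p = 1.63e-05). For Nfs1, the cysteine desulfurase of that machinery, it was 0.22 in Pparα-/- mice (adjusted p = 7.7e-05).

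Of the 16 tested genes of interleukin-6 signalling and the acute phase, the other route to hepcidin, 6 were higher and 0 lower in Pparα-/- than in WT mice on HFD, and 6 were higher and 0 lower in Pparα-/- than in Pparα hep-/- mice on CTRL, against 45.7% and 25.2% of all probes called. For the diet, 2 fell in WT mice, 3 rose and 1 fell in Pparα hep-/- mice, and 2 rose in Pparα-/- mice, against 18.7%, 20.2% and 24.8%. Il6 itself was too dim to be tested. Socs3 fell on HFD in WT mice, with a difference of -1.62 (adjusted p = 0.000601), and on CTRL Pparα hep-/- minus WT was -1.89 (adjusted p = 3.08e-05). The acute phase gene Saa2 rose on HFD in Pparα hep-/- mice by 1.97 (adjusted p = 0.00224).

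Transcripts of other liver cells moved with several of these groups, and in whole liver RNA fewer cells of a type cannot be told apart from less RNA per cell. Of 8 Kupffer cell markers, 6 were higher on HFD in Pparα-/- mice and 7 higher in Pparα-/- than in WT mice on HFD, with 0 lower, against 24.8% and 45.7% of all probes. Of the same 8, 4 exceeded WT on CTRL and 5 on HFD in Pparα hep-/- mice, with 0 lower, against 24.7% and 26.7%. The median of their summed signal was 22100 in WT and 33500 in Pparα hep-/- mice on CTRL (ranges 14600 to 32500 and 27400 to 39000), and 23800, 38900 and 43500 in WT, Pparα hep-/- and Pparα-/- mice on HFD (ranges 12200 to 67100, 28700 to 59600 and 31200 to 63500). Of 6 stellate cell markers, 6 were higher on HFD in Pparα-/- mice (1 without replicate 8), and 6 were higher in Pparα-/- than in WT mice on HFD, against 24.8% (20.8% without replicate 8) and 45.7% of all probes. Of the same 6, 3 were higher on HFD than on CTRL in Pparα hep-/- mice, against 20.2% of all probes, and 5 exceeded WT on HFD, against 26.7%. Of 8 markers of the sinusoidal endothelium, the cells that release Bmp6 and Bmp2, 4 were higher and 2 lower in Pparα-/- than in WT mice on HFD, against 45.7% of all probes. The part of these cells in the differences of Hamp2, Fth1, Ftl1, Hmox1, Slc40a1 and Bmp6 was not tested. Of the markers of white adipocytes and of the pancreas, Adipoq and Plin1, and Pnlip, Cpa1 and Prss2, were too dim to be tested. Of the 3 adipocyte markers tested, Cfd (adipsin), above background on 34 of 48 arrays, and Car3 were higher on HFD in WT mice and lower on HFD in Pparα-/- mice than in WT (0.79 and -0.76 for Car3). The shares of all probes called in these comparisons were 18.7% and 45.7%. Cfd was also lower on HFD in Pparα hep-/- mice, and no size is given because it was not well above background on the other arrays. Of the 4 pancreas markers tested, 2 were lower on HFD in each mutant (for Ctrb1 -0.60 and -0.51), against 20.2% and 24.8% of all probes. The part of these tissues in the differences of the iron genes was not tested.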

How the data were processed

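Liver RNA was labelled with Cy3 and hybridised to 1-colour Agilent arrays. Per the labels, the authors extracted the spot intensities with Agilent Feature Extraction 10.10.1.1 and normalised them with limma. The deposited table of log2 values made by the authors was used as an alternative only. Here, log2 median spot intensities were taken from the deposited scanner output, outlier spots were dropped, spots of a probe were averaged, and probes were kept if flagged as well above background on 4 or more of the 8 arrays in any group, then quantile-normalised. The files place the probes on mm9; exons and UTRs were not analysed here.

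Groups were compared with limma 3.58.1 in R 4.3.3 (group and wash batch as terms, array weights, eBayes, Benjamini-Hochberg adjustment over all probes, 12 comparisons). The 195 missing values (outlier spots) were left out of a probe's fit. Scripts were tested on simulated data. Arrays have no read depth, and their number limits the precision. Each array was treated as 1 mouse, so p-values measure the spread between mice of these groups.

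The genes and lists were chosen with earlier results of these data known. The brightest probe stands for a gene unless both are given. Pathway genes named are the 2 called genes with the smallest adjusted p per direction and comparison, and known regulators or partners of the 10 genes. Id3, Saa2, the acute phase genes named for replicate 8 and the genes named for turning with the scaling or wash batch were chosen after their values were seen. Some genes that the rule picks are not reported here. Alternatives were other scalings, filters, covariates, the wash batches apart, and each mouse left out. Counts of called probes and list genes without replicate 8 of Pparα-/- mice on CTRL were added after seeing the data.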

Additional observations from a re-analysis of the deposited data

Results flagged for a closer look

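Over the 16 iron gene probes and 6 groups, 96 sets of 8 mice were examined for a single mouse far from the others, by the gap to its neighbour as a share of the group's range, and 10 were found; chance gives about 1 in 20, or 4.8. In Pparα-/- mice on CTRL, replicate 8 was far below the others for Hamp (7.30, ratio 0.828) and Hamp2 (9.65, ratio 0.769), as described above. In the same group, replicate 4 was far above the others for the brighter Trf probe (18.59, ratio 0.656). In Pparα hep-/- mice on HFD, replicate 2 was far above the others for Bmp6 (7.59, ratio 0.562) and for the brighter Slc40a1 probe (13.04, ratio 0.564). In Pparα hep-/- mice on CTRL, replicate 5 was low for the dimmer Hfe probe (7.55, ratio 0.544) and replicate 1 for the dimmer Tfr2 probe (14.48, ratio 0.598). In WT mice on CTRL, replicate 6 was low for the dimmer Tfr2 probe (14.52, ratio 0.552) and high for Fth1 (17.50, ratio 0.564). In Pparα-/- mice on HFD, replicate 6 was low for the brighter Ftl1 probe (18.01, ratio 0.601).

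The response of Fth1 to HFD differed between groups by the interaction term of the limma model, by 0.33 between Pparα-/- and WT mice (adjusted p = 0.0264) and by 0.35 between the mutants (adjusted p = 0.0296). Under 75th percentile scaling the first turned to -0.14 (adjusted p = 0.194) and the second was 0.05 (adjusted p = 0.773), and without replicate 8 of Pparα-/- mice on CTRL the second was 0.31 (adjusted p = 0.0553).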

How the results depend on the processing

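With all mice, the 16 probes gave 12 calls over the 3 diet comparisons, 40 over the 6 genotype comparisons and 2 over the 3 differences in response. The diet count was 4 without array weights, 6 without a filter on dim probes, 7 without the wash term, 4 within each wash batch and 6 at an adjusted p of at most 0.01. The response count was 0 without weights, without the filter, within each wash batch and at 0.01, and 1 under 75th percentile scaling and without the wash term. With the replicate number as a block (replicate block), the counts were 10, 39 and 1; same-numbered mice did not deviate together (median r 0.0206 over 120 pairs, 12 of 48 arrays closest to their own number), so the numbers were not taken as a pairing. The genotype count stayed between 29 and 42 under these alternatives. Leaving out 1 mouse at a time gave 7 (without Pparα hep-/- HFD replicate 6) to 14 diet calls (without Pparα hep-/- CTRL replicate 2 or Pparα-/- CTRL replicate 8), 37 to 44 genotype calls, and 0 (without Pparα-/- HFD replicate 8) to 3 response calls; 38 of the 54 calls held in all 48 such fits. The response call under 75th percentile scaling was that of the brighter Hfe probe. Under that scaling, 8 differences called with either scaling turned, 6 of them called with quantiles. For the brighter Trf probe they were -0.32 (HFD in Pparα-/-), -0.23 (Pparα-/- minus WT, HFD) and -0.04 (Pparα-/- minus Pparα hep-/-, HFD). For the other Trf probe they were -0.21 (HFD in Pparα-/-), -0.19 (Pparα hep-/- minus WT, HFD) and -0.12 (Pparα-/- minus WT, HFD). The Fth1 response was -0.14 (Pparα-/- minus WT) and the brighter Ftl1 probe -0.13 (HFD in Pparα-/-). Relative to the median of all probes under the same scaling, these 8 lay between -0.25 and -0.02. The cause was not tested. The percentile scaling moved the share of higher calls over all probes from 46.8% to 35.5% for HFD in Pparα hep-/- mice, from 49.3% to 35.6% in Pparα-/- mice, from 49.7% to 37.8% for Pparα hep-/- minus WT on HFD, and from 44.4% to 31.2% and 48.3% to 29.9% for the response of Pparα hep-/- and Pparα-/- minus WT. For Pparα-/- minus WT on HFD it moved from 47.6% to 37.9%. For HFD in WT mice it moved the other way, from 45.9% to 50.9%. Of 412 called list and marker results 7 changed sign under the percentile scaling, but 6 of these lay no further from 0 than the median of all probes in that comparison, and Furin (-0.30) alone lay beyond it. Background correction by normexp and the deposited table turned 0. Within the wash batches 1 turned, the stellate cell marker Col1a1 for HFD in Pparα-/- mice (1.51 over both, 3.45 and -0.12 within them).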

Other observations

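Over the 48 mice, with the mean of each wash batch taken off, the probes of other genes most like Hamp by Pearson correlation were Gm4673 (0.657), Akr1c19 (0.652), Id3 (0.621), Marcksl1-ps4 (0.603) and BC005537 (0.589). Without replicate 8 of the Pparα-/- mice on CTRL, a setting chosen after seeing the data, they were Gm4673 (0.82), an unnamed transcript on chromosome 4 (0.771), Gm10318 (0.752), Ssbp2 (0.725) and Arf5 (0.711). Tfrc correlated with Hamp at -0.556 over 48 and -0.388 over 47 mice, and Hamp2 at 0.169 and -0.205. The mice share genotypes and diets, so these are descriptions across 6 groups, with no test.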
